A study of Caenorhabditis elegans with 12 samples.

Results

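The effect of daf-2 RNAi was examined in Caenorhabditis elegans that had spent a short time in L1 arrest, a pause that newly hatched larvae enter when no food is there. The comparison sets 3 libraries labelled control daf-2 RNAi against 3 labelled control EV (empty vector), chosen by their labels. These are 6 of the 12 libraries of the series, and every row of the deposited table was used. All animals were wild-type N2 (Bristol) with no transgene or mutation. Embryos obtained by bleaching hatched into S-basal without food and stayed there for 1 day. For each condition 1000 live larvae were then put at 20 °C on agar plates with HT115 bacteria that carried either the daf-2 RNAi vector or the empty vector. Whole animals were collected as early adults when eggs appeared, about 52 hours later. The other 6 libraries come from animals that fed on the same 2 kinds of bacteria after 8 days of arrest (starved), with about 68 hours of recovery, and they share no library with the control comparison. The labels give each group 3 biological replicates with the letters A, B and C. RNA of whole animals was sequenced, so fewer cells of a type and less RNA per cell cannot be told apart.

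DAF-2 is the only insulin/IGF-1 receptor of C. elegans. When insulin-like peptides bind it, the phosphoinositide 3-kinase AGE-1 and the kinases PDK-1, AKT-1, AKT-2 and SGK-1 keep the FOXO transcription factor DAF-16 out of the nucleus. With less DAF-2 activity DAF-16 enters the nucleus, genes for stress resistance, fat storage and defence against microbes are switched on, and others are switched off. Animals with little DAF-2 activity are known for long life, and larvae in L1 arrest depend on the same pathway to survive without food.

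Levels are given in CPM, the authors' normalised read counts, and changes as log2(daf-2 RNAi over EV) on the log2(CPM + 1) scale with the standard error from limma. Reads over the listed genes came to 26297982 to 30037731 in the control daf-2 RNAi libraries and 21815842 to 25901878 in the control EV libraries, so the daf-2 RNAi libraries were all deeper. Within a group, log2 values correlated at 0.986 to 0.994 on control daf-2 RNAi and 0.983 to 0.993 on control EV. The summed level of 5 ribosomal RNA genes, a measure of RNA selection, was 7460, 6802 and 10460 CPM in daf-2 RNAi libraries A, B and C, against 21370, 16380 and 27180 CPM in the EV libraries, without overlap. In starved animals the same sums were 14280, 9687 and 16050 CPM on daf-2 RNAi and 9389, 15500 and 35740 CPM on EV, which overlap. The part of depth and of ribosomal RNA in the results below was not tested.

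The targeted gene was not lower. daf-2 had 317, 202 and 118 CPM in the libraries labelled daf-2 RNAi of letters A, B and C, against 188, 155 and 91.6 CPM in the EV libraries. Each library labelled daf-2 RNAi was above the EV library of its letter, while the groups overlapped, and the change of 0.50 ± 0.55 did not pass the test (adjusted p = 0.917, or 0.2 with the letter as a block). In starved animals daf-2 had 706, 289 and 111 CPM in the libraries labelled daf-2 RNAi and 193, 153 and 102 CPM on EV, a change of 0.96 that was called higher with the block only (adjusted p = 0.006, and 0.212 without it). Reads of the animals' own daf-2 transcript and reads of double-stranded RNA from the bacteria cannot be told apart in a table of reads per gene, and the share of each was not tested. Every direction below therefore follows the labels, and "on daf-2 RNAi" means in the libraries so labelled. daf-16 had 171, 155 and 157 CPM on daf-2 RNAi and 182, 176 and 132 CPM on EV, a change of -0.01 ± 0.16.

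Between the receptor and DAF-16, akt-2 rose and sgk-1 fell. akt-2, an Akt kinase that acts on DAF-16, stood at 19, 19.7 and 18.9 CPM on daf-2 RNAi, against 9.41, 10.6 and 8.98 CPM on EV. The 3 libraries of each group lay close together and far from the other group, and the change was 0.92 ± 0.13 (adjusted p = 0.0035), a call kept without each of the 12 libraries. sgk-1, a kinase related to Akt, had 14.8, 19.5 and 18.4 CPM on daf-2 RNAi and 27, 26.9 and 27.4 CPM on EV. It fell by 0.61 on the log2 scale (SE 0.12, adjusted p = 0.032), a call lost without daf-2 RNAi library A or C, any of the 3 control EV libraries, or starved EV library B or C (adjusted p up to 0.134). With the letter as a block 4 of 22 tested genes of the pathway list were called higher and 1 lower, against 1 and 1 without it. That list runs from the receptor to DAF-16 and also holds genes outside this path, such as let-363, rsks-1, skn-1 and hsf-1. The added rises included akt-1 at 0.37 and the TOR kinase let-363 at 0.27, the last of which was lost without any control library but EV A (adjusted p up to 0.19). The median change over the list was 0.19, against -0.01 over all genes. Of all genes 3.47% were called higher and 8.25% lower with the block, and 0.663% and 0.725% without it.

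Of 15 tested insulin-like peptides, the candidate ligands of DAF-2, 1 was called lower and none higher without the block, and 3 were called in each direction with it. The shares of all genes were 0.725% lower without the block, and 3.47% higher and 8.25% lower with it. ins-13 had 0.173, 0.679 and 0.295 CPM on daf-2 RNAi and 2.18, 2.11 and 1.86 CPM on EV, and it fell by 1.16 on the log2 scale (SE 0.24, adjusted p = 0.032). That call was lost without daf-2 RNAi library A or C, any control EV library or starved EV library B (adjusted p up to 0.134), and 87 bases of its exons overlap another coding gene. With the block ins-35, ins-23 and ins-33 were called higher, and ins-30 and daf-28 lower, all at a few CPM or less. ins-23, ins-33 and ins-30 were lost without any control library, and ins-35 and daf-28 without a library of letter A or C (adjusted p up to 0.196). Without 1 control library at a time the block called 0 or 1 insulin-like peptide higher and 1 or 2 lower.

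Over the whole table, 178 of 12830 tested genes were called at an adjusted p under 0.05 (1.39%). Of these, 85 were higher on daf-2 RNAi (0.663%) and 93 lower (0.725%), or 91 higher and 65 lower after quantile normalization. The change was 2-fold or more for 57 of the higher and 43 of the lower genes. In all 178 the 3 daf-2 RNAi libraries lay on the same side of the 3 EV libraries, without overlap, and among all tested genes 899 lay wholly above (7.01%) and 1172 wholly below (9.13%). Libraries of the same letter deviated together from their group means, and once the letter was fitted as a block the number called was 1504 (11.7%), with 445 higher (3.47%) and 1059 lower (8.25%), or 499 higher and 796 lower after quantile normalization. These included all 178, and all 1504 changed the same way in the 3 pairs. The blocked calls are smaller changes, since 71 of the higher and 77 of the lower ones reached 2-fold. The number without the block fell to 60 without EV library B, 75 without daf-2 RNAi library C, 85 without EV library C, 91 without EV library A and 116 without daf-2 RNAi library B. With the block it was 771 to 1093 when 1 control library was left out, fewest without a library of letter A (771 and 775) and letter B (855 for each). In the block fit a library without its partner no longer informs the RNAi effect. Leaving out either library of a letter therefore removes the pair, so blocked calls kept or lost in this way were checked by pair, not by single library. A list below is described by its calls beside these percentages and by its median beside -0.01 over all genes.

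**Figure D1:**
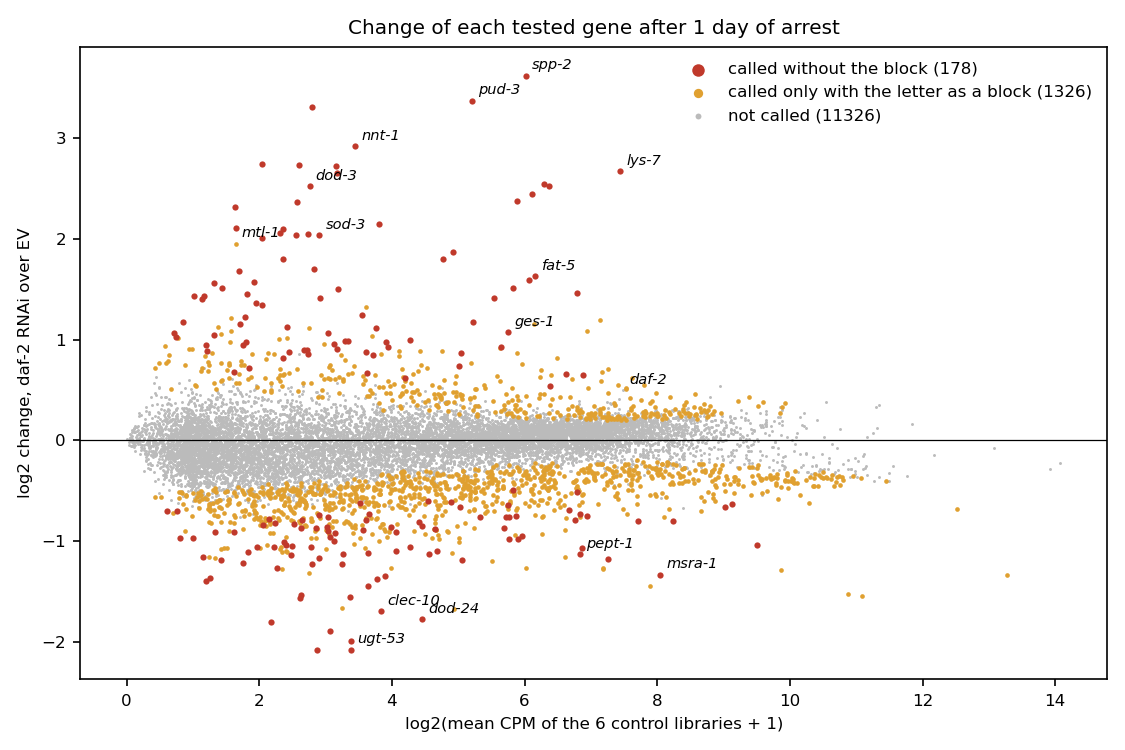
Change of each of the 12830 tested genes (vertical axis, log2 daf-2 RNAi over EV on the log2(CPM + 1) scale) against its mean level in the 6 control libraries (horizontal axis, log2). Red points are the 178 genes called without the block, orange points those called only with the letter as a block, and grey points the rest. The largest rises, led by spp-2 at 3.62, exceed the largest falls, near -2, while the orange points lie mostly below 0.

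Of 22 tested genes known as activated by DAF-16, 6 were called higher on daf-2 RNAi without the block and 11 with it. nnt-1, the mitochondrial nicotinamide nucleotide transhydrogenase, had 16.9, 14 and 24 CPM on daf-2 RNAi and 2.08, 0.951 and 1.58 CPM on EV, a change of 2.92 ± 0.24 (adjusted p = 6.6e-05). lys-7, a lysozyme, had 169, 226 and 519 CPM on daf-2 RNAi and 36.4, 42.2 and 47 CPM on EV, a change of 2.67 ± 0.48 (adjusted p = 0.015). Library C of daf-2 RNAi stood well above A and B for lys-7. The call was lost without that library or any EV library (adjusted p up to 0.0775), while the blocked call (2.7e-05) was kept without each control library. dod-3, named as downstream of DAF-16, had 11.1, 7.22 and 13.2 CPM on daf-2 RNAi, against 1.49, 1.12 and 0.419 CPM on EV (2.52 ± 0.26, adjusted p = 0.00026). The iron store ftn-1, a ferritin, had 6.56, 4.9 and 10.8 CPM on daf-2 RNAi and 0.694, 1.16 and 0.837 CPM on EV (2.10 ± 0.28, adjusted p = 0.0026). In each of these genes the lowest daf-2 RNAi library was several times the highest EV library.

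sod-3, the mitochondrial manganese superoxide dismutase used as a readout of DAF-16, had 9.46, 11.1 and 12.5 CPM on daf-2 RNAi and 2.23, 1.49 and 2.09 CPM on EV. Its libraries were tight within each group, and the change was 2.04 ± 0.20 (adjusted p = 0.00015). The long noncoding RNA tts-1, which binds ribosomes, had 47.3, 34.3 and 58.1 CPM on daf-2 RNAi, against 14.7, 11 and 10 CPM on EV (1.87 ± 0.28, adjusted p = 0.0054). The metallothionein mtl-1 was near 0 on EV, with 3, 1 and 3 reads there and 71, 39 and 233 reads on daf-2 RNAi. These correspond to 2.45, 1.39 and 8.59 CPM on daf-2 RNAi and 0.149, 0.0414 and 0.14 CPM on EV. Its groups did not overlap, but the spread on daf-2 RNAi was wide and the change of 1.95 ± 0.51 was called only with the block (adjusted p = 0.0086, against 0.105 without it), a call lost without daf-2 RNAi library C or EV library C (adjusted p up to 0.0634).

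None of the 22 was called lower in either fit, the median change was 0.41, and 3.47% of all genes were called higher with the block. The blocked rises added lys-8, a lysozyme (183, 211 and 327 CPM on daf-2 RNAi against 133, 150 and 174 on EV, 0.62), the glyoxylate enzyme icl-1 at 0.59 and the catalases ctl-2 at 0.46 and ctl-1 at 0.41, of which ctl-1 was lost without a library of letter A or C (adjusted p up to 0.136). The small heat shock genes of the list were not called, with hsp-16.1 at 0.03, hsp-12.6 at 0.34 and hsp-12.3 at -0.53. Without 1 control library at a time the blocked count was 9 to 12 and the count without the block 5 or 6.

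Of 11 tested genes known as repressed by DAF-16, 2 were called lower without the block and 5 with it. dod-24, a CUB-domain protein, had 6.15, 10 and 11.2 CPM on daf-2 RNAi and 29.4, 32.3 and 37 CPM on EV, and it fell by 1.78 on the log2 scale (SE 0.24, adjusted p = 0.0029). The lysosomal DNase II gene nuc-1 had 35.1, 45.4 and 48.6 CPM on daf-2 RNAi and 72.6, 69.5 and 74.6 CPM on EV (-0.75 ± 0.14, adjusted p = 0.023, lost without daf-2 RNAi A or B or any EV library, up to 0.0883). These were the 2 called without the block, none of the 11 was called higher, and the median was -0.38. The further blocked falls were dod-23 (27.7, 34.4 and 50.3 CPM on daf-2 RNAi against 73.3, 85.3 and 113 on EV, -1.27), dod-17 at -1.05 and dod-22 at -0.90, of which dod-22 was lost without a library of letter A or C (adjusted p up to 0.0568). ins-7, an insulin-like peptide of this list, changed by -0.38 and was not called. The blocked count was 4 or 5 without 1 control library at a time.

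**Figure D2:**
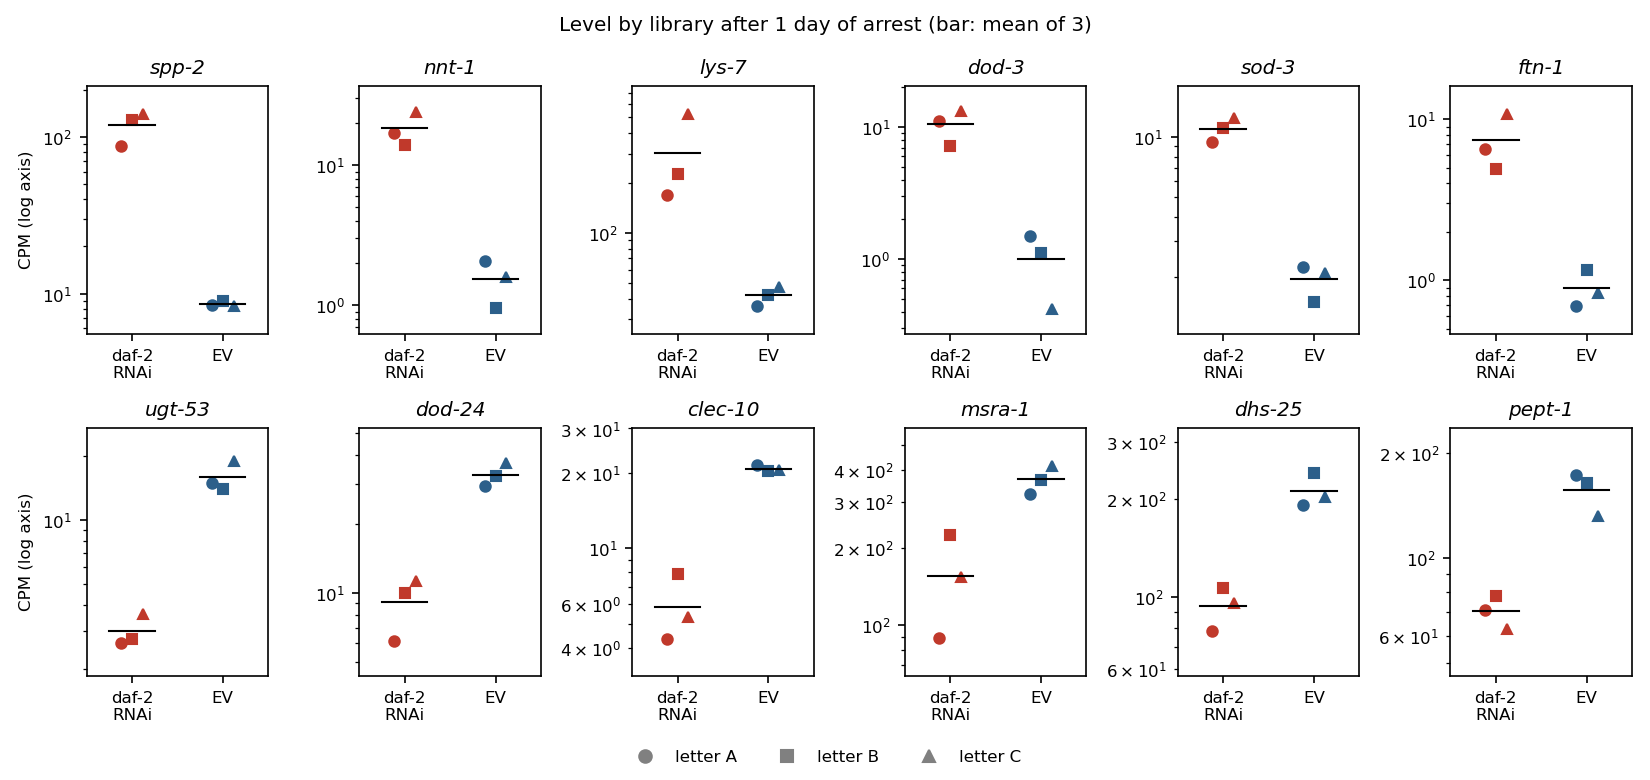
Level of 12 genes in the 6 control libraries (CPM, log axis), with daf-2 RNAi left of EV, marker shapes for the letters and a bar at the mean of 3. The upper row holds 6 genes that rose and the lower row 6 that fell, and in all 12 the groups do not overlap.

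On the log2(CPM + 1) scale the largest rise of a named gene was in spp-2, a saposin-like protein of a family that includes antimicrobial members. It had 86.9, 129 and 141 CPM on daf-2 RNAi and 8.42, 8.93 and 8.28 CPM on EV, 13.9 times the EV mean (3.62 ± 0.23, adjusted p = 1.3e-05). The EV libraries were almost equal, and each daf-2 RNAi library was at least 10.3 times the EV library of its letter. cest-1.1, a carboxylesterase, was close to absent on EV, with 4, 5 and 4 reads (0.198, 0.207 and 0.186 CPM), and had 11.1, 6.65 and 17.2 CPM on daf-2 RNAi (3.31 ± 0.29, adjusted p = 9.2e-05). Without the pseudocount the ratio for cest-1.1, as for other genes with a few reads on EV, is above that of spp-2. sdz-24, named for its dependence on SKN-1 in embryos, had 8.36, 8.08 and 10.3 CPM on daf-2 RNAi and 0.743, 0.869 and 1.16 CPM on EV (2.36 ± 0.18, adjusted p = 5.1e-05). The glutathione transferase gst-29 had 7.22, 7.54 and 10.6 CPM on daf-2 RNAi, against 1.09, 1.36 and 1.4 CPM on EV (2.04 ± 0.25, adjusted p = 0.0013). The calls of these 4 genes, and of nnt-1, dod-3, ftn-1 and sod-3, were kept without each of the 12 libraries.

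All 6 pud genes rose. They are named for proteins found at higher levels in daf-2 mutants, and their molecular function is not well understood. In the WBcel235 annotation they lie side by side on chromosome V in the order pud-1.2, pud-2.2, pud-3, pud-4, pud-2.1 and pud-1.1, with 0 other coding genes between them. pud-3 had 45.2, 51.8 and 102 CPM on daf-2 RNAi and 7.04, 2.9 and 6.19 CPM on EV (3.37 ± 0.56, adjusted p = 0.011). pud-2.2 had 106, 129 and 184 CPM on daf-2 RNAi and 24.2, 22 and 22.2 CPM on EV (2.52 ± 0.38, adjusted p = 0.0052). pud-1.1 had 77.8, 119 and 151 CPM on daf-2 RNAi and 20.6, 18.1 and 20.4 CPM on EV (2.45 ± 0.43, adjusted p = 0.013). On daf-2 RNAi library C was highest and A lowest in each of the 3 genes, while the EV libraries of pud-2.2 and pud-1.1 were nearly equal.

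pud-4 changed by 2.73, pud-2.1 by 2.55 and pud-1.2 by 2.38, and the median over the 6 was 2.54. pud-1.1 with pud-1.2, and pud-2.1 with pud-2.2, are near-identical copies, so how reads were split within each pair is uncertain. Without the block some calls were lost with a library left out. pud-4 was lost without any of the 6 control libraries (adjusted p up to 0.151), pud-3 without daf-2 RNAi C or EV B (up to 0.0702), pud-1.1 without daf-2 RNAi C, EV B or EV C (up to 0.0762), and pud-1.2 without daf-2 RNAi B or C or EV B or C (up to 0.0868). With the block all 6 were called without each control library.

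**Figure D3:**
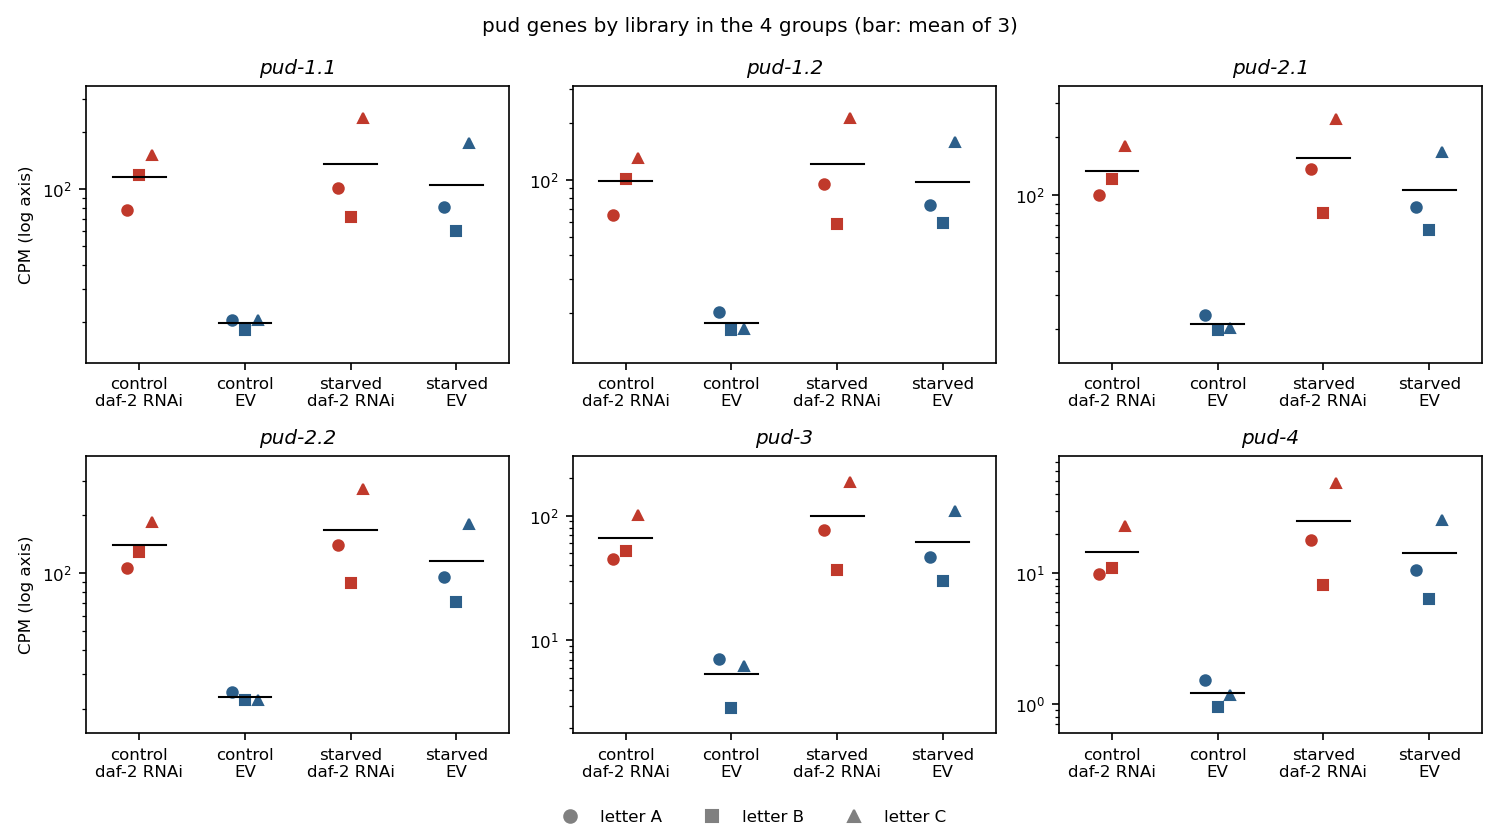
Level of the 6 pud genes (CPM, log axis) in the 4 groups, each with its 3 libraries by letter and a bar at the mean. The control EV group is the low one in each panel, the control daf-2 RNAi group overlaps both starved groups, and the starved daf-2 RNAi and starved EV groups overlap.

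On the log2(CPM + 1) scale the largest fall of a named gene was in ugt-53, a UDP-glucuronosyltransferase that couples sugars to small molecules. It had 2.66, 2.75 and 3.61 CPM on daf-2 RNAi and 15, 14 and 18.8 CPM on EV, 5.30 times lower in the mean (-2.08 ± 0.17, adjusted p = 5.1e-05). By the ratio of means without a pseudocount the scarcer clec-3 and ins-13 fell further, 7.31 and 5.36 times. The C-type lectin clec-10 had 4.35, 7.86 and 5.31 CPM on daf-2 RNAi and 21.4, 20.2 and 20.5 CPM on EV (-1.70 ± 0.21, adjusted p = 0.0013). oac-20, an O-acyltransferase homologue, had 1.93, 1.54 and 2.88 CPM on daf-2 RNAi and 9.07, 8.31 and 7.02 CPM on EV (-1.57 ± 0.25, adjusted p = 0.0078). These groups were clearly apart, and the calls of ugt-53, clec-10, oac-20 and dod-24 were kept without each library.

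Transporters and metabolic enzymes were also among the 15 largest falls. pept-1, the intestinal transporter that takes up di- and tripeptides, had 70.8, 78.1 and 62.8 CPM on daf-2 RNAi and 172, 164 and 132 CPM on EV (-1.13 ± 0.22, adjusted p = 0.027). ent-4, an equilibrative nucleoside transporter, had 6.32, 6.61 and 9.44 CPM on daf-2 RNAi and 19.1, 22.6 and 19.2 CPM on EV (-1.35 ± 0.17, adjusted p = 0.0013). dhs-25, a short-chain dehydrogenase, had 78.5, 107 and 95.7 CPM on daf-2 RNAi and 192, 240.3 and 203 CPM on EV (-1.17 ± 0.17, adjusted p = 0.0041). No daf-2 RNAi library of these 3 genes reached the lowest EV library. msra-1, which repairs oxidised methionine, had 88.8, 224 and 153 CPM on daf-2 RNAi and 324, 365 and 416 CPM on EV (-1.33 ± 0.25, adjusted p = 0.02). gpdh-1, the glycerol-3-phosphate dehydrogenase induced by osmotic stress, had 2.69, 4.29 and 6.09 CPM on daf-2 RNAi and 11.9, 16.5 and 14.4 CPM on EV (-1.55 ± 0.34, adjusted p = 0.045).

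The remaining falls of that rank were cutl-18, a cuticlin-like gene, at -1.53, clec-170 at -1.27, the cytochrome P450 cyp-13A2 at -1.23, nlp-31, an antimicrobial peptide of the epidermis, at -1.12, chca-1 at -1.12 and math-4, a MATH-domain gene, at -1.12. The calls of pept-1, cyp-13A2 and gpdh-1 were lost without any of the 6 control libraries (adjusted p up to 0.203), and that of gpdh-1 also without 4 of the starved ones (daf-2 RNAi A and EV A, B and C). That of msra-1 was lost without daf-2 RNAi C, EV B or EV C, those of clec-170 and math-4 without EV A or B, that of nlp-31 without any control library but EV A, and that of chca-1 without any control library but daf-2 RNAi B or without starved daf-2 RNAi A or B or EV B (adjusted p up to 0.151). Each of these 8 genes kept its blocked call without each control library. Exons of oac-20, gpdh-1, cutl-18 and msra-1 share 95, 73, 84 and 41 bases with an exon of another coding gene, and those of sod-3 share 89.

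Fat metabolism split by enzyme. fat-5, a desaturase of palmitoyl-CoA, had 77.7, 107 and 132 CPM on daf-2 RNAi and 24.5, 26.5 and 53 CPM on EV (1.63 ± 0.29, adjusted p = 0.014). Its highest EV library, C, was still below its lowest daf-2 RNAi library. The call was lost without daf-2 RNAi B or C or EV A or B (adjusted p up to 0.0883), and the blocked call was not. Of 20 tested genes of fatty acid synthesis and desaturation fat-5 alone was called higher, in both fits, and 6 were called lower with the block. Those 6 include the omega-3 desaturase fat-1 at -0.43, the fatty acid synthase fasn-1 at -0.34 and the acyltransferase dgat-2, which completes triglycerides, at -0.46. The calls of fasn-1 and dgat-2 were lost without a library of letter A or B (adjusted p up to 0.156). The list's median was -0.09, and without 1 control library at a time 1 to 6 members were called lower.

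Among 22 lipases and lipid droplet genes, 2 were called higher without the block, and 5 higher and 1 lower with it (2 to 4 higher without 1 control library), around a median of 0.07. The lysosomal lipase lipl-2 had 1.59, 2.39 and 2.88 CPM on daf-2 RNAi and 0.248, 0.0827 and 0.279 CPM on EV, where it had 5, 2 and 6 reads (1.43 ± 0.21, adjusted p = 0.0041). lipl-4, a lysosomal acid lipase tied to long life when overexpressed, had 2.56, 4.22 and 3.76 CPM on daf-2 RNAi and 1.14, 1.16 and 0.744 CPM on EV (1.15 ± 0.20, adjusted p = 0.013, lost without daf-2 RNAi B or C or EV C, up to 0.0635). Neither gene's groups overlapped. In fatty acid activation and oxidation 58 genes were tested, and 6 were called higher and 8 lower with the block (3 to 6 and 4 to 7 without 1 control library). They ran from hacd-1, a hydroxyacyl-CoA dehydrogenase, at 1.08 (109, 194 and 198 CPM on daf-2 RNAi against 62.7, 87.1 and 78.9 on EV) to cpt-4, a carnitine palmitoyltransferase, at -0.82, which was lost without a library of letter A or B (up to 0.184). Without the block acs-17, an acyl-CoA synthetase, was called higher (0.74), a call lost without any control library or starved B or C library (up to 0.155), and acdh-9, an acyl-CoA dehydrogenase, lower (-0.69), lost without EV B (0.0868).

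Of 7 yolk protein and receptor genes, none was called without the block by limma, edgeR or DESeq2, and 0 had an unadjusted p under 0.05. vit-1 was called lower with the block (5593, 3892 and 3212 CPM on daf-2 RNAi against 12578, 5942 and 3863 on EV, -0.68), a call lost without any of the 6 control libraries (adjusted p up to 0.215). Of 24 one-carbon and phosphatidylcholine genes 6 were called lower and none higher with the block (3 to 5 without 1 control library). pmt-2, a methyltransferase of phosphocholine synthesis, had 386, 482 and 448 CPM on daf-2 RNAi and 693, 690.1 and 651 CPM on EV (-0.63 ± 0.14, adjusted p = 0.039 without the block, lost without any of the 6 control libraries, starved daf-2 RNAi B or starved EV B, up to 0.171). sams-1, which makes the methyl donor S-adenosylmethionine, fell by 0.61 with the block. Of 24 glyoxylate, trehalose, glycerol and gluconeogenesis genes 5 were called higher with the block, among them the phosphoenolpyruvate carboxykinases pck-1 at 0.61 and pck-2 at 0.44 (lost without a library of letter C, 0.0685) and the trehalose synthase tps-1 at 0.46, while gpdh-1 and the aldolase aldo-1 were called lower.

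Of 78 genes in the ribosomal protein list 2 were called lower and none higher without the block. With it 53 were called lower and none higher, where 8.25% of all genes were called lower. The list also holds rpa-1 and rpa-2, which are named for replication protein A and are not ribosomal. The median change of the 78 was -0.36 (-0.18 after quantile normalization). The summed level of the 78 was 69470 to 79800 CPM on daf-2 RNAi and 82630 to 105100 CPM on EV. Fewer were called lower when 1 control library was left out, with 5 without either library of letter C, 16 without letter B and 31 without letter A. Each of the 2 called without the block has a sister gene of the same number in the list, rpl-11.1 and rpl-23A.2. rpl-11.2 had 174, 248 and 241 CPM on daf-2 RNAi and 355, 415 and 378 CPM on EV (-0.80 ± 0.16, adjusted p = 0.024), and rpl-23A.1 changed by -0.73 (adjusted p = 0.033). rpl-11.2 was lost without daf-2 RNAi A or C or any EV library, and rpl-23A.1 without any control library or starved EV B (up to 0.161).

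iff-2, a homologue of the translation factor eIF5A, had 132, 165 and 159 CPM on daf-2 RNAi and 259, 283 and 248 CPM on EV (-0.80 ± 0.13, adjusted p = 0.012, or 0.0818 without EV library B). With eef-1A.2 it made up the 2 of 40 translation factors called with the block, both lower, a share below the 8.25% of all genes. The call of eef-1A.2 was lost without a library of letter A or B (0.127). Of 40 nuclear genes of the respiratory chain 18 were called lower and none higher with the block (8 to 10 without 1 control library), with a median of -0.22 and sums of 10340 to 11240 CPM on daf-2 RNAi and 11980 to 13150 CPM on EV. Of 21 subunits of the vacuolar ATPase, the proton pump of lysosomes, 13 were called lower and 1, vha-7, higher with the block (5 to 12 lower without 1 control library, and vha-7 lost without any of them, up to 0.101). The sums of that pump were 4862 to 5653 CPM on daf-2 RNAi and 5972 to 6898 CPM on EV. Without the block 0 genes of the respiratory chain and 0 of the pump were called by limma, where 7 and 9 had an unadjusted p under 0.05, and edgeR called 0 of either while DESeq2 called 0 and 2.

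Proteasome and heat shock genes gave few calls. Of 33 proteasome subunits 0 were called in either fit by limma, edgeR or DESeq2, with 0 at an unadjusted p under 0.05 without the block and 1 with it, and the median change was 0.07. Of 62 heat shock and chaperone genes 0 were called without the block (2 at an unadjusted p under 0.05, and 0 by edgeR or DESeq2) and 3 with it. These were hsp-12.2 at -0.65, dnj-20, also lower at 0.80 times the EV mean, and hsp-4, the BiP chaperone of the endoplasmic reticulum, at 0.27. The call of hsp-4 was lost without any control library (up to 0.194) and that of hsp-12.2 without a library of letter A (0.0973). Without a library of letter A, 0 genes of the list were called lower. Of 21 lysosomal proteases 3 were called higher and 6 lower with the block (0 higher without a library of letter B or C, and 3 lower without letter A or B), and the median was -0.07, with the sign reversed after quantile normalization. The largest was the cathepsin B-like cpr-5, with 139, 154 and 85.7 CPM on daf-2 RNAi and 479, 323 and 243 CPM on EV (-1.45 ± 0.39, adjusted p = 6.8e-05 with the block and 0.12 without it), and the groups did not overlap.

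Antioxidant and iron genes moved singly. Of 23 antioxidant enzymes sod-3 was called higher and msra-1 lower without the block, and ctl-1 and ctl-2 joined the rises with it. sod-1 and sod-2, the other main superoxide dismutases, changed by 0.14 and 0.02, and the peroxiredoxin prdx-2 by 0.01, none of them called. Of 7 iron genes ftn-1 was higher in both fits, and with the block the second ferritin ftn-2 went the other way, with 127, 182 and 178 CPM on daf-2 RNAi and 222, 273 and 252 CPM on EV (-0.63 ± 0.17, adjusted p = 0.00041). The groups of both ferritins were apart, in opposite directions. The iron exporter fpn-1.1 and the aconitase aco-1 were also called lower with the block, at -0.53 and -0.40, and fpn-1.1 was lost without a library of letter A (0.0896). The list's median of -0.05 turned to 0.05 after quantile normalization.

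Defence genes moved in both directions. Of 47 lysozymes, saposins and antimicrobial peptides 3 were called higher without the block, spp-2, lys-7 and spp-18, and 9 higher and 9 lower with it. spp-18 (1.12) was lost without any control library, starved daf-2 RNAi A or B or starved EV B (adjusted p up to 0.208). The blocked rises included lys-2 (128, 145 and 325 CPM on daf-2 RNAi against 71.7, 63 and 107 on EV, 1.20), whose daf-2 RNAi library C stood apart as for lys-7. The blocked falls included the antimicrobial peptides cnc-4 at -1.07, fipr-21 at -0.93 and cnc-3 at -0.77. The median was -0.01 and turned positive under the other scalings, and without 1 control library at a time 8 or 9 were higher and 1 to 3 lower. cnc-4 and cnc-3 were lost without a library of letter B or C (up to 0.106). Of 78 C-type lectins, secreted or membrane proteins many of which respond to bacteria, 2 were called higher and 3 lower without the block and 9 higher and 18 lower with it, around a median of -0.11. The lectin median was -0.05 after quantile normalization. With the block 3 to 10 lectins were higher and 11 to 16 lower without 1 control library, fewest higher without letter C and fewest lower without letter A or B. The rises without the block were clec-76 at 1.17, lost without EV B (0.0525), and clec-169 at 0.98, lost without a library of letter B or C (up to 0.134).

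clec-3 had 0.242, 0.322 and 0.443 CPM on daf-2 RNAi and 2.53, 2.73 and 2.09 CPM on EV (-1.37 ± 0.20, adjusted p = 0.0052). The 2 near-identical copies of clec-209, between which the split of reads is uncertain, had 57.5, 65.3 and 137 CPM and 55.2, 66.8 and 141 CPM on daf-2 RNAi, against 157, 178 and 269 CPM and 152, 179 and 270 CPM on EV. Both were called lower with the block only, at -1.28 and -1.26. For clec-209 library C was highest in both groups, and each pair showed the fall.

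Genes of detoxification were called in both directions too. Of 54 tested cytochrome P450 genes, which oxidise foreign and internal small molecules, 3 were called higher and 3 lower without the block and 6 in each direction with it. Without 1 control library at a time, 0 to 3 were higher and none lower without the block, and 4 to 7 higher and 3 or 4 lower with it. cyp-35B1, a known DAF-16 target, had 1.42, 1.72 and 2.77 CPM on daf-2 RNAi, against 2, 2 and 1 reads on EV (1.44 ± 0.27, adjusted p = 0.02). cyp-13A5 changed by 1.35 and cyp-13A2 by -1.23, genes of the same subfamily. cyp-35B1 was lost without daf-2 RNAi B or C or any EV library, and cyp-13A5 without daf-2 RNAi A or C or EV B or C (up to 0.102). Of 54 UDP-glucuronosyltransferases none was called higher and 3 lower without the block, ugt-53, ugt-26 (-1.05, lost without EV C, 0.0633) and ugt-48 (-0.87, lost without any EV library, up to 0.0728), and 2 higher and 12 lower with it (1 to 5 and 9 to 13 without 1 control library), with a median of -0.11. After quantile normalization that median was -0.03. ugt-44 was the larger rise, with 63.4, 104 and 122 CPM on daf-2 RNAi and 46.1, 27.6 and 55.5 CPM on EV (1.15 ± 0.29, adjusted p = 0.004 with the block). Of 33 glutathione transferases gst-29 was called without the block, and 3 were called higher and 4 lower with it (1 to 3 lower without 1 control library).

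Of 111 tested collagens 0 were called without the block (7 at an unadjusted p under 0.05, 0 by edgeR and 2 by DESeq2), and 1 higher and 14 lower with it (5 to 9 lower without 1 control library), with a median of -0.24. After quantile normalization the collagen median was -0.12. The collagen dpy-17 had 27.9, 5.15 and 18 CPM on daf-2 RNAi and 47.1, 12.1 and 32.3 CPM on EV, with letter B lowest in both groups and each pair lower on daf-2 RNAi (-0.88, adjusted p = 0.00041 with the block and 0.7 without it). Of 75 cuticlins and moulting genes 1 was called lower without the block, the patched-related ptr-24 (-0.64, lost without any control library, starved daf-2 RNAi A or B or starved EV B, up to 0.171), and 6 lower and 1 higher with it, a share of falls near the 8.25% of all genes. noah-1, a protein of the apical matrix, had 26.6, 4 and 18.1 CPM on daf-2 RNAi and 49.5, 11.7 and 29.5 CPM on EV, the same pattern over letters as dpy-17.

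Of 168 nuclear hormone receptors 9 were called lower and none higher with the block (3 to 8 without 1 control library), below the 8.25% of all genes. Of 82 neuropeptide genes 1 was called higher and 1 lower without the block, the FMRFamide-like gene flp-34 (3.94, 8.44 and 6.93 CPM on daf-2 RNAi against 1.93, 2.56 and 2.37 on EV, 1.13, adjusted p = 0.045) and nlp-31. The call of flp-34 was lost without most single libraries, namely daf-2 RNAi B or C, any EV library, and starved daf-2 RNAi A or B or EV A or B (up to 0.184). The epidermal peptides nlp-29 at -0.97 and nlp-33 at -1.26 were called lower with the block, 2 of 8 falls in the list (4 to 7 without 1 control library). The share of falls in that list was near the 8.25% of all genes. Of 52 genes of small RNA and RNA interference pathways 0 were called without the block (1 at an unadjusted p under 0.05, and 0 by edgeR or DESeq2), and 9 higher and none lower with it. These include dcr-1, which cuts double-stranded RNA, at 0.33, the double-stranded RNA transporter sid-1 at 0.22 and the Argonaute rde-1 at 0.22. The calls of sid-1 and rde-1 were lost without any control library (up to 0.179) and that of dcr-1 without a library of letter B (0.0565). They are small, and 0 to 4 were called when 1 control library was left out, with 0 without either library of letter B. Of 63 cell cycle and replication genes 3 were called higher with the block (4.76%), near the 3.47% of all genes. Of 20 major sperm protein genes 0 were called in either fit by limma, edgeR or DESeq2, also at an unadjusted p under 0.05.

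Markers of tissues describe what the whole animals held. Sums of body muscle markers were 5005 to 7021 CPM on daf-2 RNAi and 5910 to 10650 CPM on EV, and of 20 markers 13 were called lower with the block and 0 without it (5 to 15 without 1 control library). The myosin unc-54 had 1565, 617 and 469 CPM on daf-2 RNAi and 2623, 989.7 and 541 CPM on EV, so that letters differed more than bacteria and each pair was lower on daf-2 RNAi (-0.54 ± 0.80), a blocked call that was lost without a library of letter A or B (up to 0.132). Of 13 pharynx markers 6 were called lower with the block (2 to 4 without 1 control library), with sums of 56.9 to 107 CPM on daf-2 RNAi and 78.4 to 285 CPM on EV. Of 15 intestine markers 7 were lower and 3 higher with the block (2 lower without a library of letter A, 6 or 7 otherwise, and 2 to 4 higher), which set pept-1 and the gut actin act-5 (-0.53) against the gut esterase ges-1. ges-1 had 62.8, 68.8 and 85 CPM on daf-2 RNAi and 36.7, 30.5 and 33.3 CPM on EV (1.08 ± 0.14, adjusted p = 0.0015). The intestine sums of 2867 to 3607 CPM on daf-2 RNAi and 3081 to 4371 CPM on EV overlapped.

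Oocyte and eggshell markers summed to 18520 to 22990 CPM on daf-2 RNAi and 14890 to 18740 CPM on EV, germline markers to 9944 to 13490 CPM on daf-2 RNAi and 8847 to 11980 CPM on EV, and sperm markers to 384.5 to 476.3 CPM on daf-2 RNAi and 352.3 to 460.9 CPM on EV. All 3 overlapped, and 2 of 24, 3 of 29 and 0 of 13 markers were called, all higher, with the block. Of all genes 3.47% were called higher and 8.25% lower with it. Sums of zygotic embryo markers were 411.2 to 428.6 CPM on daf-2 RNAi and 355.2 to 394.5 CPM on EV, without overlap, with 1 of 8 markers called lower. Hypodermis sums were 1353 to 2292 CPM on daf-2 RNAi and 1925 to 2645 CPM on EV, with 2 of 15 markers called lower, and neuron sums 420.6 to 464.3 CPM on daf-2 RNAi and 454.7 to 535.2 CPM on EV, with 1 of 20 called lower. col-19, a collagen of the adult cuticle, was present in all libraries, with 1038, 1969.6 and 1690.3 CPM on daf-2 RNAi and 1574, 2304 and 2046 CPM on EV, so the marker of the labelled stage was found. Without the block no hypodermis, muscle, pharynx, neuron, germline, oocyte, sperm or zygotic embryo marker was called by limma, edgeR or DESeq2, and 0 to 2 of each list had an unadjusted p under 0.05. The part of tissue shares in the changes of single genes was not tested.

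**Figure D4:**
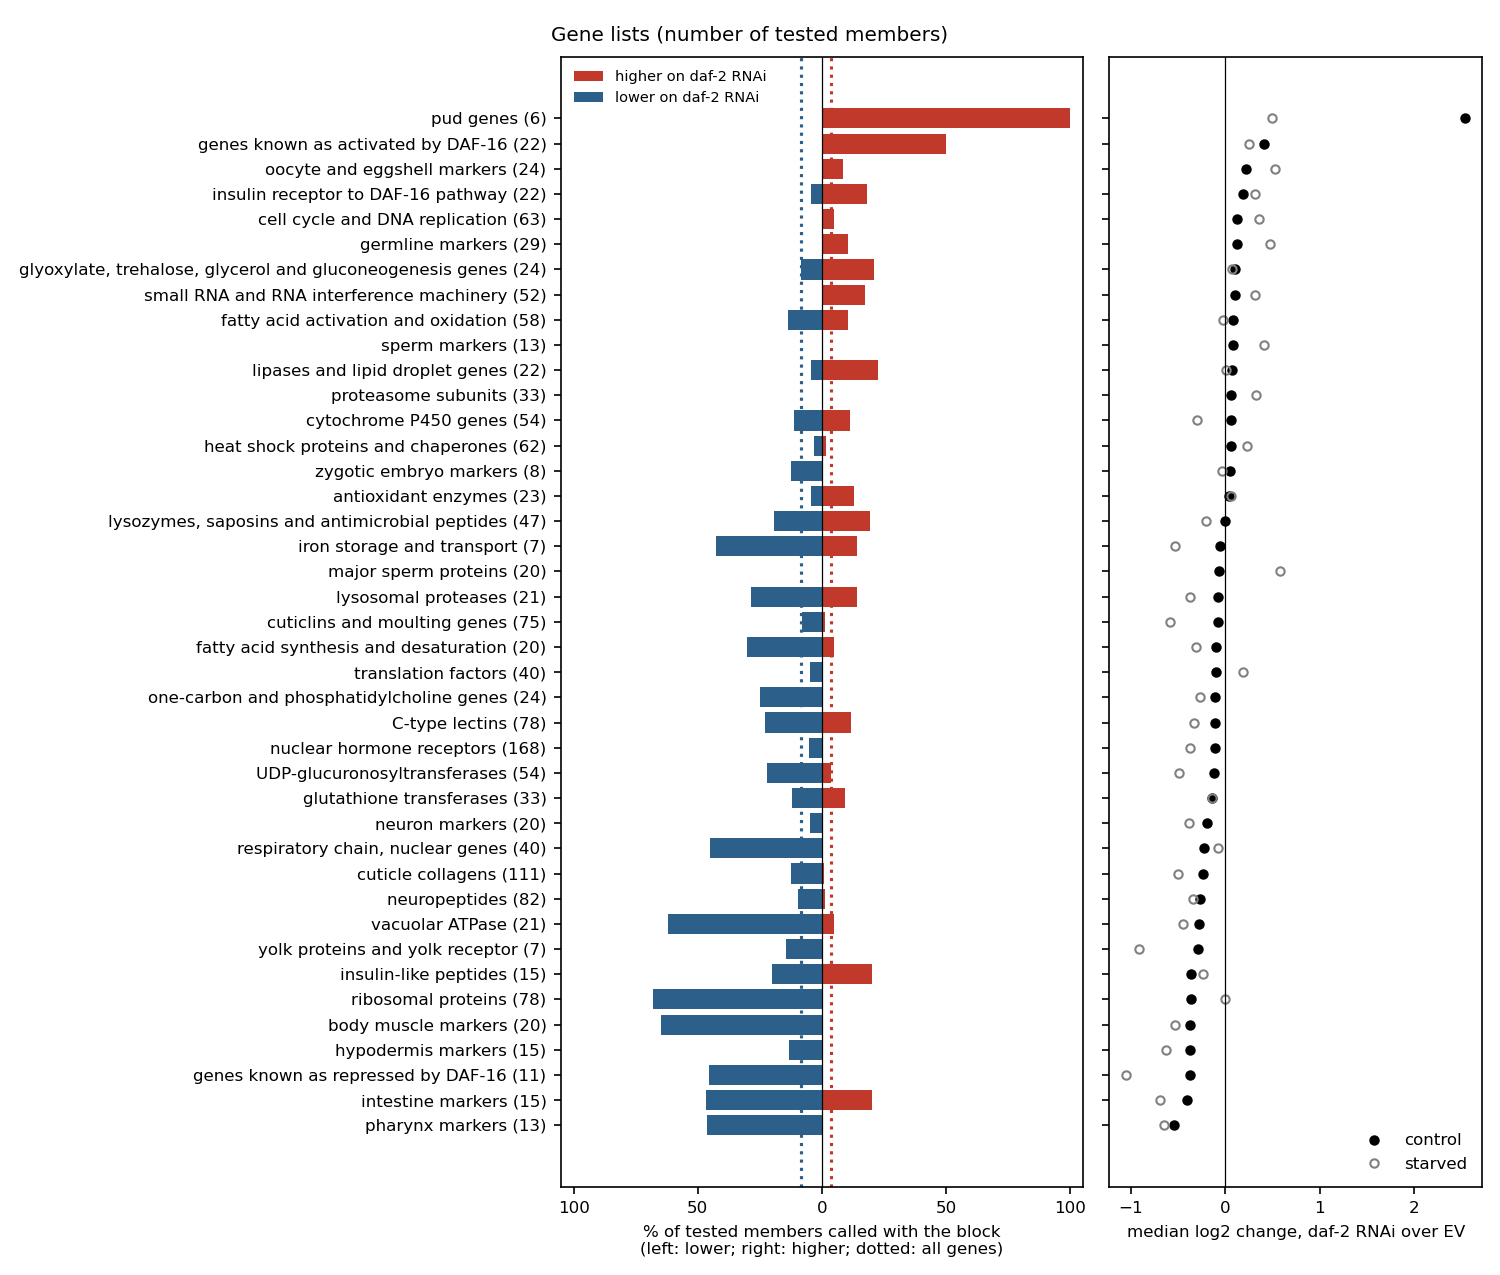
Left, percent of tested members of each gene list called with the letter as a block, higher on daf-2 RNAi to the right and lower to the left, with dotted lines at 3.47% and 8.25% for all genes. Right, median log2 change of each list in control (filled) and starved (open) animals. The pud genes stand apart in control animals with a median of 2.54, and the ribosomal proteins have -0.36 in control and 0.00 in starved animals.

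The same RNAi after 8 days of arrest moved most genes called in the control comparison in the same direction. In starved animals 2017 genes were called (15.7%), 488 higher and 1529 lower. All 178 control calls had the same sign there, and 153 were called there too, 63 of the 85 higher genes and 90 of the 93 lower ones. These 153 are 7.59% of the starved calls, 12.9% of its rises and 5.89% of its falls. Of the 1504 blocked calls 1404 had the same sign (93.4%), and 15 were called in the opposite direction in starved animals with the block. The share of all tested genes with the same sign was not counted, so these sign counts have no background beside them. The median size of the 85 rises was 1.40 in control and 1.02 in starved animals, and that of the 93 falls 0.96 in control and 1.12 in starved animals. These genes were chosen by their test in control animals, which favours large control changes. The medians therefore do not show in which animals the effect was larger.

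spp-2 changed by 3.62 in control and 3.66 in starved animals, and cest-1.1 by 3.31 in control and 3.12 in starved animals. nnt-1 changed by 2.92 in control and 2.27 in starved animals, lys-7 by 2.67 in control and 2.00 in starved animals, and sod-3 by 2.04 in control and 1.53 in starved animals. tts-1 and ftn-1 changed by 1.87 and 2.10 in control animals, against 2.48 and 2.57 in starved animals. None of these 7 differences was called in either fit.

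The difference of the RNAi effect, control minus starved, was tested directly. Without the block 0 genes were called by limma (912 at an unadjusted p under 0.05), 0 by edgeR and 4 by DESeq2. With the block 770 were called (6.0%), 546 with a positive difference (4.26%) and 224 with a negative one (1.75%). This count depended strongly on single pairs, since leaving out 1 library removes its pair from the block fit. It was 61 without either control library of letter C, 88 and 87 without one of letter B, and 1890 and 1885 without one of letter A. It was 91 to 259 when a starved library was left out. Most of the 546 were genes that fell in starved animals, where 504 were called lower with the block and 85 were called lower in control animals, with a median change of -0.02 in control and -0.85 in starved animals. Most of the 224 rose in starved animals, where 201 were called higher, against 3 in control animals, with medians of 0.00 in control and 0.45 in starved animals.

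All 6 pud genes changed more in control than in starved animals. pud-3 changed by 3.37 in control and 0.59 in starved animals, a difference of 2.79 ± 0.29 (adjusted p = 0.0038 with the block, not called without it). Its starved libraries had 76.4, 36.6 and 186 CPM on daf-2 RNAi and 46.8, 29.8 and 109 CPM on EV, so the starved groups overlap and both lie above control EV. The other 5 differed by 2.03 to 2.13, and all 6 differences were called without each of the 12 libraries. In starved EV libraries pud-1.1 had 80.7, 60.4 and 176 CPM, against 20.6, 18.1 and 20.4 CPM in control EV libraries, and every starved EV library was above every control EV library.

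Among named genes the other differences were smaller, except that of nhx-6 at 2.05, a gene with 0 to 6 reads in the control libraries. Of the 178 control calls 28 had a called difference with the block, 16 of the rises and 12 of the falls. ugt-53 fell by 2.08 in control and 3.18 in starved animals, and oac-20 by 1.57 in control and 3.02 in starved animals. ugt-44 changed by 1.15 in control and -0.38 in starved animals and lys-2 by 1.20 in control and 0.28 in starved animals. The calls of these 4 differences were lost without some single libraries (adjusted p up to 0.0837). Those libraries were of letters B and C in control and A in starved animals for ugt-53, A in starved for oac-20, C in control and A in starved for ugt-44, and B and C in control and A and B in starved for lys-2. Of 111 collagens 18 had a called positive difference, around medians of -0.24 in control and -0.50 in starved animals, and of 75 cuticlins and moulting genes 25, around medians of -0.07 in control and -0.58 in starved animals, where 4.26% of all genes had one. Of 78 genes in the ribosomal protein list 6 had a called negative difference, where 1.75% of all genes had one. All these counts come from the fit whose total fell to 61 without a control library of letter C.

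**Figure D5:**
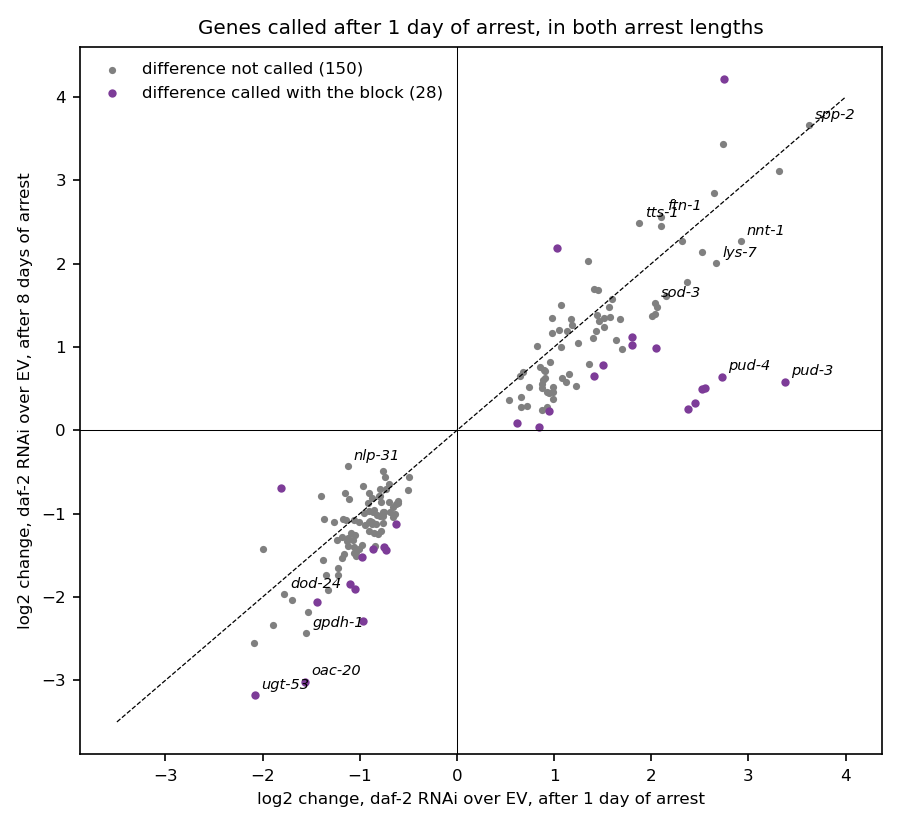
Change of the 178 genes called in control animals (horizontal axis, log2 daf-2 RNAi over EV after 1 day of arrest) against the change of the same genes in starved animals (vertical axis, after 8 days). Purple points are the 28 genes whose difference was called with the block, and the dashed line marks equal changes. All points lie in the lower left or upper right part, and the pud genes lie far below the line.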

How the data were processed

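RNA of 12 whole-animal samples was sequenced from libraries made, per the labels' protocols, with a NEBNext Ultra kit, which keeps no strand, from 500 ng of RNA and 12 PCR cycles. Per the submitters' processing notes Bowtie 1.1.2, HTSeq 0.12.4 and edgeR were used. Of the genome build, the annotation and the handling of reads with several matches, the sources used here say nothing. The authors deposited 1 normalised signal value per gene and library, called CPM, for 12894 genes, with column sums of 889133 to 1097908. Values were whole multiples of what 1 read is worth, 100% of them within 0.01 read of a whole number, which gave the reads of each library (21150912 to 30037731). Names came from the WBcel235 annotation for 12732 genes (162 had none). It was also used for exon overlaps and gene order, and 32 of the 198 genes chosen to be named share exon bases with another coding gene.

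A gene was tested if 3 or more libraries had 1 CPM or more (12830 kept, 64 removed). limma-trend (limma 3.58.1, R 4.3.3) modelled log2(CPM + 1) in the 4 groups of all 12 libraries, two-sided, with Benjamini-Hochberg adjustment and a threshold of 0.05. The pseudocount of 1 understates changes of genes near 1 CPM. The block fit adds a term for each letter within an arrest length. When 1 library is left out of that fit, its partner no longer informs the RNAi effect, so the whole pair drops out. Same-lettered libraries deviated together from their group means (r of 0.695, 0.55 and 0.541 for A, B and C in control and 0.821, 0.596 and 0.593 in starved animals), so the letters pair the libraries, as read from the data. The labels call the replicates biological without saying how letters were assigned. With 3 libraries a side the smallest exact two-sided permutation p is 0.1. Alternatives were edgeR 4.0.16 with TMM and DESeq2 1.42.0 on the whole reads, other pseudocounts, filters and scaling, and leaving out each library.

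Members and the 41 gene lists were chosen with earlier results of these data known. Named genes are daf-2, daf-16, sod-3 and mtl-1, then, with a mean of at least 5 CPM in the higher group, a class symbol and 1 direction in the 3 pairs, the 15 largest rises and falls called without the block and the 10 each way called only with it. To these come up to 4 called members of each list (2 if none) and the 5 largest differences between arrest lengths each way. A further 29 list members were picked after their values were seen. A result that is withheld is not reported here.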

Additional observations from a re-analysis of the deposited data

Results flagged for a closer look

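The effect of daf-2 RNAi differed between control and starved animals for 34 named genes when the letter was a block, and for none of them without it (limma, adjusted p). Values are control minus starved differences of the log2 change. The 6 pud genes had 2.79 for pud-3, 2.13 for pud-1.2, 2.12 for pud-1.1, 2.08 for pud-4, 2.05 for pud-2.1 and 2.03 for pud-2.2 (adjusted p 0.00377 to 0.00956). They and both copies of clec-209 (1.13 each) and noah-2 (0.977) made up the 9 whose call held without each of the 12 libraries, and the other 25 were lost without at least 1.

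The rest of the positive differences were as follows. Genes that were lower on daf-2 RNAi in both arrest lengths, and more so in starved animals, were col-43 at 1.63, oac-20 at 1.45, ugt-53 at 1.11, dpy-7 at 0.994, ugt-26 at 0.853, dpy-17 at 0.833, mlt-11 at 0.804, dpy-14 at 0.714, noah-1 at 0.693, dod-23 at 0.69, cth-1 at 0.652, fasn-1 at 0.541 and pmt-2 at 0.489. The Na+/H+ exchanger nhx-6 had 2.05, with a change of -0.03 in control and -2.09 in starved animals. It had only 0, 3 and 6 reads on control daf-2 RNAi and 4, 5 and 0 on control EV. ugt-44 at 1.53, fog-3 at 0.985, lys-2 at 0.918 and clec-85 at 0.596 had a positive change in control animals.

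Negative differences were found for the saposin-like spp-9 at -1.79 and spp-12 at -1.38, for dct-8 at -1.75, fipr-22 at -1.19, cyp-13A11 at -1.16, nlp-29 at -0.868 and rpl-37A at -0.509. spp-9 changed by 0.27 in control and 2.06 in starved animals. On control EV spp-9 had 0, 2 and 0 reads and dct-8 1, 2 and 1. spp-12 had 1, 1 and 1 reads there and cyp-13A11 4, 2 and 0. So near 0 the pseudocount shrinks the control change, and the differences of these genes depend on it. Without it the control daf-2 RNAi mean was 9.17 (spp-9), 11.1 (dct-8), 5.19 (spp-12) and 13.6 (cyp-13A11) times the EV mean. Groups of 3 libraries are too small for a test of single outlying libraries.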

How the results depend on the processing

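The number of genes called without the block, 178, came to 91 with only the 6 control libraries, 383 by DESeq2 and 1504 with a replicate block by letter, and ranged from 60 to 180 when each library was left out. In the other settings it was 125 to 199. The blocked count of 1504 was 178 without the block, 771 to 1093 when each control library was left out and 1295 to 1603 otherwise. The difference between arrest lengths had 0 calls, 1 with a pseudocount of 5, 4 by DESeq2, 0 to 1 when each library was left out and 770 with the replicate letter as a block. That count of 770, a fit chosen after seeing the data, was 481 with a pseudocount of 0.1, 404 by edgeR, 0 without the block and 61 to 1890 when each library was left out. The cause of these shifts was not tested.

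Of 58 named genes called without the block 22 were called without each library, of 178 called with it 112, and no called value of these genes reversed in any setting run. Depth limits genes with a few reads in EV libraries, such as mtl-1, cest-1.1 and cyp-35B1, whose fitted changes depend on the pseudocount.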
